A study of Mus musculus with 20 samples.

Results

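The 10 genes described here are the glucocorticoid receptor gene Nr3c1, the mineralocorticoid receptor gene Nr3c2, the enzyme gene Hsd11b1 and 7 genes known to be induced by glucocorticoids or by stress, Fkbp5, Sgk1, Ddit4, Tsc22d3, Zbtb16, Errfi1 and Cdkn1a. They were chosen by symbol, with earlier results of these data known, as were the gene lists set beside them. The set makes up 10 of the 23412 genes measured. All 10 were found in both tissues and all 10 passed the filter on low values. RNA was sequenced from amygdala and hippocampus of mice at 21 days after birth, in 10 libraries per tissue. Each tissue gave 3 NCoR1-KO, 3 SMRT-KO and 4 control libraries. The NCoR1-KO mice carried floxed Ncor1 and the SMRT-KO mice floxed SMRT alleles, each together with Snap25-IRES2-cre, a driver that expresses Cre recombinase in neurons of all kinds. By this design glia and vessel cells keep their alleles, and the libraries hold RNA of the whole tissue. The labels do not say whether the controls carried Cre or a floxed allele. Nor do they tell whether each library is a separate animal, and the p-values cover only the spread among these libraries, part of which may be technical.

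Glucocorticoids, in mice mainly corticosterone, are the hormones of the stress response. They cross the cell membrane and bind 2 nuclear receptors, the mineralocorticoid receptor with high affinity and the glucocorticoid receptor with lower affinity, and the bound receptors move to the nucleus and switch genes on or off. Hippocampal neurons are known for their high content of both receptors, and hippocampus and amygdala both take part in the control of the stress axis. NCoR1 and SMRT are corepressors, proteins that nuclear receptors recruit to keep genes silent, and the design asked what each does in neurons.

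Levels are in TPM, which corrects for gene length and sets each library to the same total, so that levels of different genes can be compared. Between 14153 and 14509 genes reached 1 TPM in an amygdala library and between 13787 and 14391 in a hippocampus library. Sequencing depth cannot be read from such values, so no counting error is attached to them. Ncor1, the targeted gene of NCoR1-KO, averaged 35.2 ± 3.51 TPM in amygdala NCoR1-KO and 108 ± 25.1 TPM in amygdala controls, and 49.2 ± 10.4 TPM in hippocampus NCoR1-KO and 117 ± 24.7 TPM in hippocampus controls (SD, n = 3 and 4). Snap25, whose locus carries the driver, lay between 1053 and 1699 TPM in the 12 knockout libraries and between 1825 and 2329 TPM in the 8 controls. Summed markers of the hippocampal CA fields were 171 to 205 TPM in amygdala and 443 to 594 TPM in hippocampus, and those of amygdala nuclei were 102 to 284 TPM in amygdala and 48.0 to 157 TPM in hippocampus. The top of that last range was hippocampus control 2, which also had the highest striatal sum of the hippocampus libraries, 312 TPM. Hippocampus SMRT-KO 2 stood apart with 665 TPM of thalamic and 14299 TPM of oligodendrocyte markers, and hippocampus NCoR1-KO 3 with 11578 TPM of choroid plexus markers. Several hippocampus results are also given without these 3 libraries, control 2 among them. Those results keep hippocampus SMRT-KO 3, which had 177 TPM of dentate gyrus markers, against 287 to 376 TPM in the other hippocampus libraries. It also had the highest neuronal sum of the tissue, 5539 TPM, so differences in dissection remain in them.

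Both receptors were well expressed, and their balance differed between the tissues. Nr3c2 averaged 29.1 ± 3.78 TPM in control amygdala and 136 ± 16.6 TPM in control hippocampus (SD, n = 4 each), where it was the highest of the 10 genes by mean. Its 4 amygdala values were 24.8, 30.3, 33.6 and 27.6 TPM and its 4 hippocampus values 143, 111, 144 and 145 TPM. No amygdala library of any genotype came near a hippocampus library, and hippocampus control 2 was the low one of its group. Nr3c1 averaged 60.3 ± 2.70 TPM in control amygdala and 55.1 ± 3.42 TPM in control hippocampus, with overlapping libraries. The ratio of Nr3c2 to Nr3c1 within a library was therefore below 1 in amygdala and above 1 in hippocampus, at 0.484 ± 0.0730 in control amygdala and 2.46 ± 0.322 in control hippocampus.

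**Figure D1:**
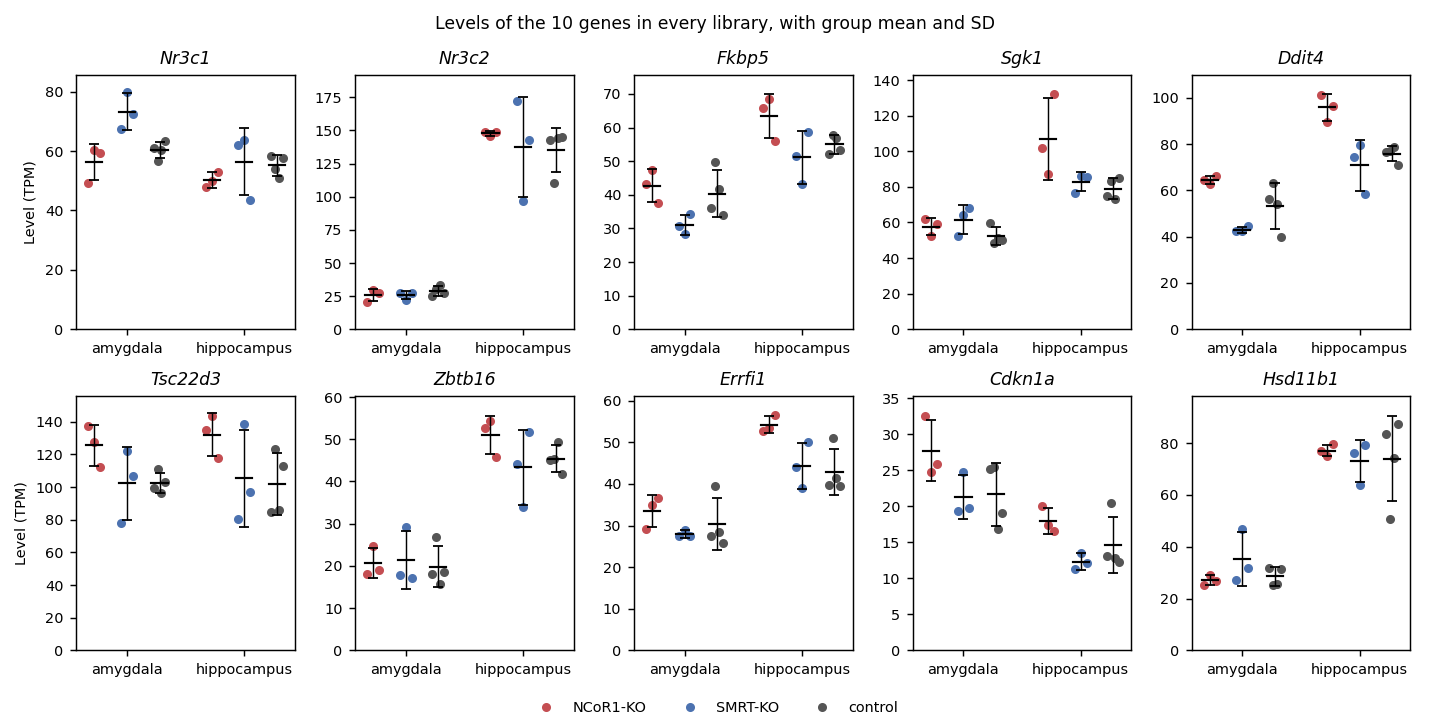
Level in TPM (vertical axes, each from 0) of the 10 genes in every library (points), by tissue and genotype, with the mean (short line) and SD (bar) of each group. Nr3c2 lies between 20.6 and 33.6 TPM in all amygdala libraries and between 97.0 and 172 TPM in all hippocampus libraries. Ddit4 is higher in NCoR1-KO than in SMRT-KO without overlap in either tissue, on backgrounds of 18.8% in amygdala and 6.44% in hippocampus.

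Between control tissues, 8 of the 10 genes differed by limma's test over all genes, on a background of 32.5% of the 14210 genes tested in both tissues. Of the 8, 7 were lower in amygdala and 1, Cdkn1a, was higher. The share of all genes whose libraries do not overlap between the control tissues was not computed. The median log2 difference of the 10 genes was -0.51, against 0.03 for all tested genes. TPM is scaled within each library and the tissues came in separate tables, so these are differences in the share of the measured RNA. In such bulk samples fewer cells of a type and less RNA per cell cannot be told apart.

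The largest of these differences were in Nr3c2 and Hsd11b1. Nr3c2 in control amygdala was at 21.5% of its control hippocampus level, a log2 difference of -2.18 ± 0.15 (SE, limma adjusted p = 1.5e-08). Hsd11b1 codes for the enzyme that regenerates active glucocorticoid from its inactive form inside the cell. It had 31.7, 25.2, 25.8 and 31.5 TPM in control amygdala and 83.5, 50.8, 74.2 and 87.4 TPM in control hippocampus, without overlap, although hippocampus control 2 lay well below its group. The log2 difference was -1.32 ± 0.16 (limma adjusted p = 7.69e-06). Zbtb16, a zinc-finger transcription factor gene induced by glucocorticoids, was at 43.6% of the hippocampus level, with a log2 difference of -1.18 ± 0.17 (limma adjusted p = 5.21e-05).

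The smaller differences ran through the induced genes. Sgk1 codes for a kinase that regulates ion channels and transporters, Ddit4 for an inhibitor of the growth kinase complex mTORC1, Errfi1 for an inhibitor of the EGF receptor, and Fkbp5 for a cochaperone that lowers the affinity of the glucocorticoid receptor for its hormone. These 4 were at 66.4%, 70.4%, 70.7% and 73.3% of the hippocampus level in control amygdala, with log2 differences between -0.58 and -0.45. In each of them every control amygdala library lay below every control hippocampus library, without a background over all genes to set beside it. Cdkn1a, which codes for an inhibitor of cyclin-dependent kinases, had 25.2, 25.5, 16.8 and 19.1 TPM in control amygdala and 13.1, 20.5, 12.9 and 12.2 TPM in control hippocampus. The groups overlapped through hippocampus control 2, and the log2 difference was 0.54 ± 0.16 (limma adjusted p = 0.0127). Nr3c1 and Tsc22d3, which codes for the anti-inflammatory protein GILZ, did not pass, with log2 differences of 0.13 ± 0.10 and 0.03 ± 0.16 (limma adjusted p = 0.346 and 0.916). The sign for Tsc22d3 turned under quantile normalization (-0.0040), and without hippocampus control 1 (-0.05), hippocampus control 3 (-0.05) or amygdala control 2 (-0.01). The 8 calls held in every alternative run, and without the 3 hippocampus libraries that stood apart Nr3c2 differed by -2.28, Hsd11b1 by -1.49 and Cdkn1a by 0.70.

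**Figure D2:**
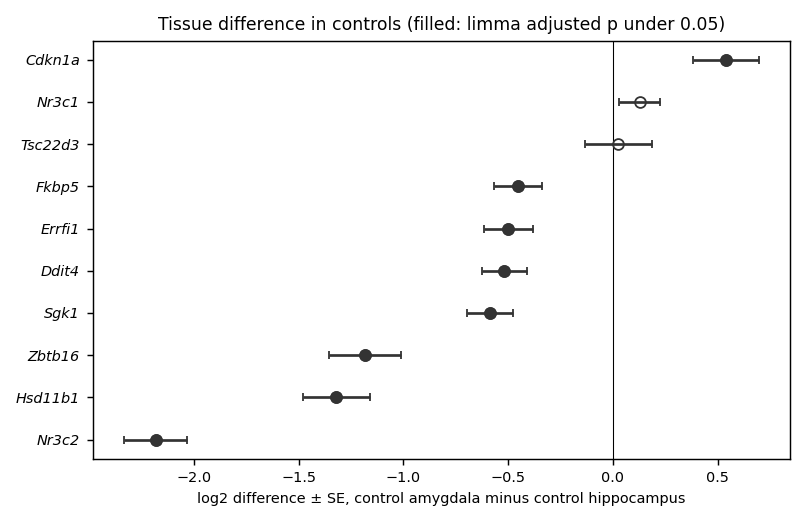
Log2 difference ± SE (horizontal axis) of each of the 10 genes between control amygdala and control hippocampus, 4 libraries each, with genes down the vertical axis. Filled points are the 8 genes with a limma adjusted p under 0.05, and Nr3c2 at -2.18 lies farthest from 0.

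In control amygdala the order of mean levels was Tsc22d3 (103 TPM), Nr3c1 (60.3), Ddit4 (53.3), Sgk1 (52.5), Fkbp5 (40.3), Errfi1 (30.3), Nr3c2 (29.1), Hsd11b1 (28.6), Cdkn1a (21.6) and Zbtb16 (19.8 TPM). Only Tsc22d3 was set off from its neighbour in that order, and every other neighbouring pair had overlapping libraries. In control hippocampus the order was Nr3c2 (136 TPM), Tsc22d3 (102), Sgk1 (79.0), Ddit4 (75.8), Hsd11b1 (74.0), Nr3c1 (55.1), Fkbp5 (55.0), Zbtb16 (45.4), Errfi1 (42.9) and Cdkn1a (14.7 TPM). There the neighbours that did not overlap were Tsc22d3 and Sgk1, Fkbp5 and Zbtb16, and Errfi1 and Cdkn1a. Tsc22d3 was thus the most abundant of the induced genes in both tissues.

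Other genes of glucocorticoid signalling did not follow one direction between the control tissues. Of 27 further glucocorticoid-induced genes, 3 were higher and 6 lower in amygdala (median log2 difference -0.07), a share near the 32.5% of all genes. The same background holds for the other lists. Cebpd and Cebpb, both transcription factor genes, were lower, at 2.77 ± 0.650 and 7.67 ± 0.358 TPM in amygdala and 9.11 ± 1.07 and 14.2 ± 2.24 TPM in hippocampus. Of the 4 tested genes of the corticotropin-releasing factor system, the peptide gene Crh and its receptor gene Crhr1 were higher in amygdala. Crh had 8.15 ± 0.873 TPM in control amygdala and 3.18 ± 1.10 TPM in control hippocampus (log2 difference 1.16). Of 13 chaperones and cochaperones of the receptors, 4 were higher and 1 lower in amygdala, of 14 coregulators 1 was higher and 3 lower, and of 8 genes of local steroid metabolism and export 1 was higher and 2 lower. Of 12 immediate early genes, which neurons switch on within minutes of activity, 2 were higher, Btg2 and Fos, and neither passed without hippocampus control 1, 3 or 4 or amygdala control 1. Leaving out 1 library gave 2 to 4 higher and 2 to 7 lower among the further induced genes, the fewest lower without hippocampus control 4, and Cebpd and Cebpb stayed lower each time. Without the 3 hippocampus libraries that stood apart the median of these 27 was 0.02, with 5 higher and 5 lower. Under quantile normalization or centring on the library median the chaperones had 2 higher and 0 lower.

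RNA of cell type and region markers differed between the control tissues as well. All 8 oligodendrocyte markers were lower in amygdala, with sums of 1390 to 4735 TPM in control amygdala and 5375 to 9813 TPM in control hippocampus. Of 8 microglial markers 7 were higher in amygdala, with sums of 615 to 803 TPM in control amygdala and 519 to 650 TPM in control hippocampus. Of 8 neuronal markers 4 were higher and 0 lower in amygdala. Of 6 tested CA-field markers 5 were lower and 0 higher, and of 6 tested dentate gyrus markers 4 were lower and 1 higher. Of 8 striatal markers 4 were higher and 1 lower, and of 7 markers of amygdala nuclei 5 were higher and 0 lower. None of the markers of these lists was at 0 in a library, and their part in the tissue differences was not tested.

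The clearest genotype difference within a tissue was between the knockouts in amygdala. In amygdala NCoR1-KO against SMRT-KO, limma called 2 of the 10 genes, Ddit4 higher and Nr3c1 lower in NCoR1-KO, on a background of 11.5% of 14606 tested genes. That share is near the background, so the count alone does not set the 10 genes apart. Libraries did not overlap for Ddit4, Fkbp5 and Errfi1 with NCoR1-KO higher (background 18.8%) and for Nr3c1 with NCoR1-KO lower (background 19.6%). The median log2 difference of the 10 genes was 0.13, against -0.00 for all tested genes.

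Nr3c1 is annotated at positions 39410545 to 39519421 of chromosome 18 (GRCm38, minus strand). Its amygdala values were 49.4, 60.3 and 59.3 TPM in NCoR1-KO libraries, 67.5, 79.8 and 72.3 TPM in SMRT-KO and 60.9, 56.8, 60.4 and 63.3 TPM in controls. Every SMRT-KO library lay above every NCoR1-KO and every control library. The log2 difference of NCoR1-KO from SMRT-KO was -0.38 ± 0.08 (SE, limma adjusted p = 0.0235). SMRT-KO differed from control by 0.27 ± 0.08 (limma adjusted p = 0.0946) and did not pass.

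Ddit4 is annotated at positions 59949669 to 59951834 of chromosome 10 (GRCm38, minus strand). In amygdala it had 64.4, 62.9 and 66.4 TPM in NCoR1-KO libraries, 42.2, 42.4 and 44.5 TPM in SMRT-KO and 56.3, 63.2, 54.1 and 39.7 TPM in controls. The knockouts were each tight and far apart, and the controls spread from below the SMRT-KO libraries into the range of NCoR1-KO. NCoR1-KO averaged 64.6 ± 1.79 TPM and SMRT-KO 43.0 ± 1.25 TPM (SD, n = 3 each), a log2 difference of 0.57 ± 0.13 (limma adjusted p = 0.0234). Against control neither knockout passed, with log2 differences of 0.29 ± 0.12 in NCoR1-KO and -0.28 ± 0.12 in SMRT-KO (limma adjusted p = 0.345 and 0.204). Ddit4 did not pass between the knockouts without NCoR1-KO 1, 2 or 3 or SMRT-KO 2 or 3 (adjusted p = 0.0586 to 0.0802), and Nr3c1 did not pass without NCoR1-KO 1 (0.0572), SMRT-KO 2 (0.0915) or SMRT-KO 3 (0.0778). The same reductions cut the calls over all genes from 1679 to between 243 and 892.

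Fkbp5, itself a brake on the receptor, had 43.3, 47.4 and 37.5 TPM in amygdala NCoR1-KO, 30.7, 28.2 and 34.2 TPM in SMRT-KO and 36.0, 49.7, 41.6 and 34.0 TPM in controls. NCoR1-KO lay above SMRT-KO without overlap, while controls reached down into the range of SMRT-KO. Its log2 difference between the knockouts, 0.45 ± 0.13, had a limma adjusted p of 0.0553, and passed with a filter at a mean of 5 TPM (0.0490), quantile normalization (0.0477), centring on the library median (0.0359) or without control 2 (0.0251). Errfi1 had 29.1, 35.0 and 36.6 TPM in amygdala NCoR1-KO, against 27.4, 29.0 and 27.5 TPM in SMRT-KO, ranges that just fail to meet, and did not pass (limma adjusted p = 0.246).

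Against control, none of the 10 genes passed in amygdala in either knockout. For NCoR1-KO the background was 0.411% of 14606 genes and for SMRT-KO 0.11%, and 3 and 4 of the 10 had an unadjusted p under 0.05, as did 1915 and 3208 of all genes. The 2 comparisons share their 4 controls. Of all tested genes 41.7% lay above control in NCoR1-KO and 42.0% in SMRT-KO. In NCoR1-KO 7 of the 10 genes were above control, with a median log2 difference of 0.11 against -0.03 for all genes. Tsc22d3 was the only one without overlap, on backgrounds of 3.68% higher and 8.43% lower. It had 137, 128 and 112 TPM in NCoR1-KO and 99.5, 111, 96.6 and 103 TPM in controls, and the lowest NCoR1-KO library was just above the highest control. In SMRT-KO 4 of the 10 were above control, with a median of -0.02 against -0.03, and only Nr3c1 was without overlap, on backgrounds of 5.85% higher and 12.2% lower.

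In amygdala Nr3c2 overlapped between the genotypes. It had 20.6, 29.4 and 27.3 TPM in NCoR1-KO libraries, 27.3, 22.1 and 27.2 TPM in SMRT-KO and 24.8 to 33.6 TPM in controls. The log2 difference of Nr3c2 from control was -0.18 in each knockout, and that of Nr3c1 was -0.10 in NCoR1-KO and 0.27 in SMRT-KO. The ratio of Nr3c2 to Nr3c1 averaged 0.455 ± 0.0357 in NCoR1-KO, 0.352 ± 0.0672 in SMRT-KO and 0.484 ± 0.0730 in controls (SD, n = 3, 3 and 4). All 3 SMRT-KO libraries had ratios at or below 0.404, under every other amygdala library, but narrowly, as control 1 had 0.407.

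**Figure D3:**
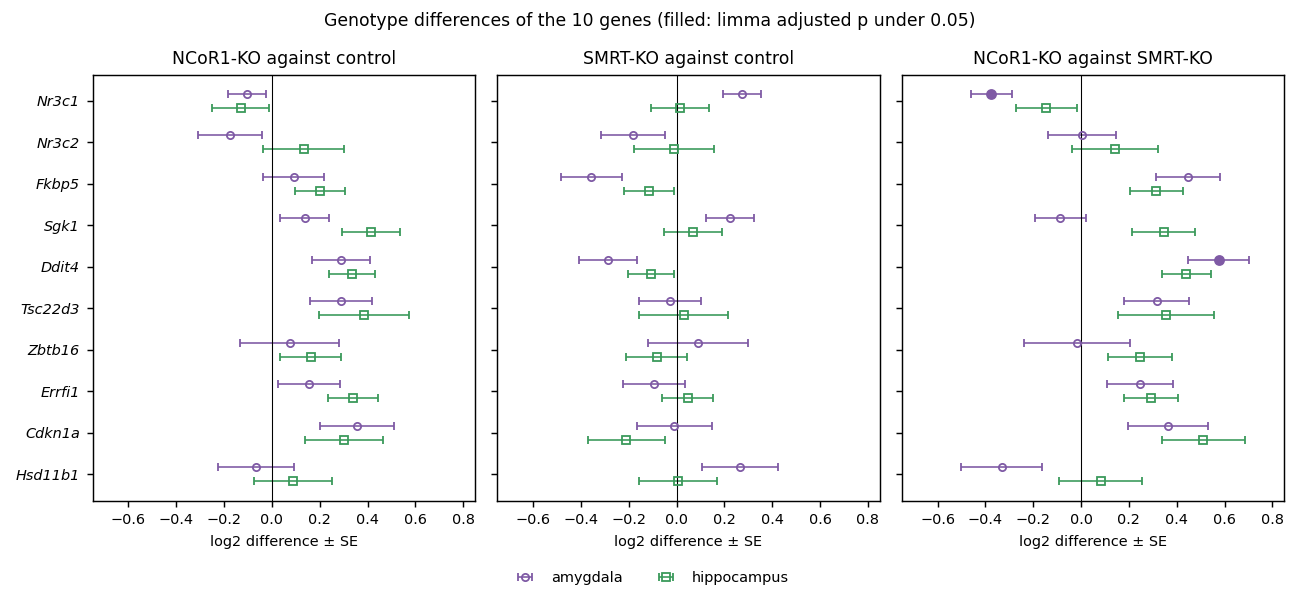
Log2 difference ± SE (horizontal axes) of the 10 genes in amygdala (circles) and hippocampus (squares) for NCoR1-KO against control, SMRT-KO against control and NCoR1-KO against SMRT-KO. The filled points, with a limma adjusted p under 0.05, are Nr3c1 at -0.38 and Ddit4 at 0.57 in amygdala NCoR1-KO against SMRT-KO.

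In hippocampus no gene of the 10 passed in any comparison, and limma called 0% of 14501 genes in NCoR1-KO against control, 0% in SMRT-KO against control and 0% in NCoR1-KO against SMRT-KO. At an unadjusted p under 0.05 there were 658, 813 and 956 genes in these comparisons, of which 3, 0 and 5 were among the 10. In NCoR1-KO 9 of the 10 genes were above control, all but Nr3c1, with a median log2 difference of 0.25 against 0.00 for all genes. Without the 3 libraries that stood apart 8 were above, with a median of 0.29. The 4 genes without overlap were Nr3c2, Sgk1, Ddit4 and Errfi1, all higher in NCoR1-KO, on backgrounds of 4.18% higher and 3.91% lower. For Nr3c2 the margin was narrow, with the lowest NCoR1-KO library at 145.8 TPM and the highest control at 144.9 TPM. Its controls reached down to 110.7 TPM, and its log2 difference from control was 0.13 ± 0.17 (limma adjusted p = 0.998). In SMRT-KO 5 of the 10 were above control and 5 below, with a median of -0.00 against -0.02. None was without overlap, on backgrounds of 2.07% higher and 2.71% lower.

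Ddit4 had 101, 89.7 and 96.4 TPM in hippocampus NCoR1-KO, 74.4, 79.7 and 58.6 TPM in SMRT-KO and 76.5, 77.0, 78.6 and 71.1 TPM in controls. All 3 NCoR1-KO libraries exceeded all others of the tissue. The log2 difference from control was 0.33 ± 0.10 in NCoR1-KO (limma adjusted p = 0.998), and NCoR1-KO differed from SMRT-KO by 0.44 ± 0.10 (limma adjusted p = 0.704). Ddit4 in NCoR1-KO was thus above SMRT-KO without overlap in both tissues, on backgrounds of 18.8% higher in amygdala and 6.44% in hippocampus. Only the amygdala difference passed. The share of all genes that do so in both tissues was not computed. The labels do not say whether the tissues came from the same mice, so the tissues may not be independent.

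Sgk1 had 102, 87.1 and 132 TPM in hippocampus NCoR1-KO, 76.8, 86.3 and 85.6 TPM in SMRT-KO and 74.8, 83.2, 73.3 and 84.9 TPM in controls. The NCoR1-KO libraries were above the rest, the lowest of them narrowly, and the highest was the library rich in choroid plexus RNA. Its log2 difference from control was 0.41 ± 0.12 and became 0.28 ± 0.10 without the 3 libraries that stood apart. Errfi1 had 52.6, 53.5 and 56.7 TPM in NCoR1-KO libraries, 44.0, 38.9 and 50.1 TPM in SMRT-KO and 39.6, 51.1, 41.4 and 39.5 TPM in controls, so that NCoR1-KO was again on top. Its log2 difference from control was 0.34 ± 0.11, and 0.39 ± 0.07 without those libraries. Neither gene passed (limma adjusted p = 0.998 each).

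Between the knockouts in hippocampus, 55.7% of all tested genes were higher in NCoR1-KO. Of the 10 genes 9 were higher, with a median log2 difference of 0.30 against 0.02 for all genes. Without the 3 libraries that stood apart 7 were higher, with a median of 0.19. Sgk1, Ddit4, Errfi1 and Cdkn1a did not overlap, on backgrounds of 6.44% higher and 5.01% lower. Cdkn1a had 20.01, 17.3 and 16.5 TPM in NCoR1-KO libraries, 11.2, 13.5 and 12.1 TPM in SMRT-KO and 13.1, 20.5, 12.9 and 12.2 TPM in controls. Control 2 alone kept the NCoR1-KO libraries from lying above all controls. The log2 difference of NCoR1-KO from SMRT-KO was 0.51 ± 0.17 (limma adjusted p = 0.726), and 0.63 ± 0.11 without the 3 libraries that stood apart. Fkbp5 differed by 0.31 ± 0.11 (limma adjusted p = 0.728), by 0.20 ± 0.10 without SMRT-KO 2 and by 0.28 ± 0.08 without all 3 of those libraries. The remaining genes kept overlapping ranges. Zbtb16 lay between 45.9 and 54.4 TPM in NCoR1-KO, between 34.0 and 51.8 TPM in SMRT-KO and between 41.8 and 49.4 TPM in controls, and Hsd11b1 between 75.04 and 79.5, between 63.9 and 79.2 and between 50.8 and 87.4 TPM in the same order of groups. The ratio of Nr3c2 to Nr3c1 was 2.95 ± 0.158 in NCoR1-KO, 2.53 ± 0.906 in SMRT-KO and 2.46 ± 0.322 in controls, with the lowest value, 1.53, in SMRT-KO 2. Without the 3 libraries that stood apart it was 3.02 ± 0.139 in NCoR1-KO, 3.03 ± 0.367 in SMRT-KO and 2.60 ± 0.206 in controls (SD, n = 2, 2 and 3).

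Whether a knockout effect differed between amygdala and hippocampus was tested in a joint fit. None of the 10 genes passed for the NCoR1-KO effect (0% of 14210 genes) or for the SMRT-KO effect (0%), and none of the 10 had an unadjusted p under 0.05 in either, against 522 and 1257 of all genes. The differences of the effects ranged over the 10 genes from -0.31 to 0.05 for NCoR1-KO and from -0.24 to 0.26 for SMRT-KO on the log2 scale. These tests do not show that the effects are alike in the tissues.

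Other genes of glucocorticoid signalling were followed through the same comparisons. In amygdala NCoR1-KO against SMRT-KO, 4 of the 27 further glucocorticoid-induced genes were higher and 0 lower, with a median of 0.19, on the background of 11.5% of all genes, 735 higher and 944 lower, which also holds for the lists that follow. The count of 4 of 27 is near it. They were Hif3a, Nfkbia, Map3k6 and Per1. Nfkbia, the gene of an inhibitor of NF-kappa-B, had 46.9 ± 3.97 TPM in NCoR1-KO, against 37.9 ± 1.13 TPM in SMRT-KO, and the clock gene Per1 had 61.8 ± 3.64 and 44.5 ± 6.497 TPM (SD, n = 3 each). None of these 4 passed without NCoR1-KO 1, NCoR1-KO 2, SMRT-KO 2 or SMRT-KO 3, and Per1 did not without NCoR1-KO 3 or control 1. Without SMRT-KO 1 only Hif3a remained and Klf9 was lower. Without control 4, Hif3a and Nfkbia remained, and without control 2 there were 7 higher.

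Among 14 coregulators, the histone deacetylase gene Hdac3 and the methyltransferase gene Carm1 were higher in amygdala NCoR1-KO than in SMRT-KO, and Ncor1 and the corepressor gene Nrip1 were lower. Hdac3 had 134 ± 3.58 TPM in NCoR1-KO, against 115 ± 4.17 TPM in SMRT-KO. Of these, Ncor1 alone passed without NCoR1-KO 1, NCoR1-KO 2, SMRT-KO 2 or SMRT-KO 3, and Carm1 did not pass without NCoR1-KO 3. In the corticotropin-releasing factor system of 6 genes, Crhr1 was lower, with 15.5 ± 1.76 TPM in NCoR1-KO, against 26.8 ± 5.59 TPM in SMRT-KO, and the binding protein gene Crhbp was higher, with 37.1 ± 4.76 and 26.2 ± 1.54 TPM. Crhr1 did not pass without NCoR1-KO 2, SMRT-KO 2 or SMRT-KO 3, and Crhbp did not pass without any 1 of the 6 knockout libraries or without control 1 or 4. Of 8 steroid metabolism genes, Cyp11a1, which codes for the enzyme of the first step of steroid synthesis, was lower, with 1.97 ± 0.303 TPM in NCoR1-KO, against 5.34 ± 2.12 TPM in SMRT-KO, but not without NCoR1-KO 2. Of 13 chaperones and of 12 immediate early genes, 0 passed, with 4 and 1 at an unadjusted p under 0.05.

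Against control, limma called 1 gene of these 6 lists in the 4 comparisons within a tissue, Ncor1 in amygdala NCoR1-KO, which did not pass without NCoR1-KO 2. In hippocampus 22 of the 27 further induced genes were above control in NCoR1-KO (median 0.17) and 1 of 27 in SMRT-KO (median -0.10), with 3 and 2 at an unadjusted p under 0.05. The SMRT-KO count was 5 under quantile normalization, 6 with centring on the library median and between 1 and 10 with 1 library left out. Without the 3 libraries that stood apart, 23 were above control in NCoR1-KO and 1 in SMRT-KO (medians 0.19 and -0.19). Klf9, a transcription factor gene induced by glucocorticoids and by thyroid hormone, had 217 ± 8.21 TPM in NCoR1-KO and 193 ± 8.98 TPM in controls. In amygdala 19 of the 27 induced genes were above control in NCoR1-KO (median 0.04) and 6 of 27 in SMRT-KO (median -0.13). Of these 27, 4 and 9 had an unadjusted p under 0.05, as did 1915 and 3208 of all 14606 genes. All 12 immediate early genes were above control in hippocampus NCoR1-KO (median 0.35) and all 12 below in hippocampus SMRT-KO (median -0.27), where 1 was above under quantile normalization. Without the 3 libraries that stood apart 12 were above in NCoR1-KO and 5 in SMRT-KO (medians 0.43 and -0.04). Summed over the list, hippocampus NCoR1-KO reached 707, 619 and 808 TPM, SMRT-KO 443, 395 and 558 TPM and controls 469, 810, 443 and 504 TPM, where control 2 was the high one. In amygdala 11 of the 12 were above control in NCoR1-KO (median 0.42; 12 under both other scalings) and 6 in SMRT-KO (median -0.01), with 9 to 12 and 2 to 10 when 1 library was left out. The difference between the tissues passed for 0 of these 12 genes in either knockout, with 0 and 0 at an unadjusted p under 0.05. The part of neuronal activity in the levels of the 10 genes was not tested.

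Markers of other cells and of neighbouring regions moved between the amygdala knockouts. All 8 oligodendrocyte markers were below SMRT-KO in NCoR1-KO, 1 of them past limma's threshold, with sums of 2032 to 2698 TPM in NCoR1-KO, 4061 to 5907 TPM in SMRT-KO and 1390 to 4735 TPM in controls. All 8 microglial markers were below, 6 past the threshold, with sums of 552 to 603, 741 to 820 and 615 to 803 TPM in the same order of groups. All 8 striatal markers were below, 1 past the threshold, with sums of 303 to 611, 718 to 1235 and 233 to 788 TPM. Of the 7 markers of amygdala nuclei 6 were above and 2 passed, with sums of 212 to 284, 102 to 183 and 163 to 251 TPM. Endothelial markers were below in 7 of 8 and passed in 2, with sums of 250.1 to 291, 297 to 363 and 262 to 367 TPM. Mural cell and fibroblast markers were below in 8 of 8 and passed in 2, with sums of 251 to 268, 282 to 347 and 259 to 322 TPM. Astrocyte markers were below in 7 of 8 and passed in 1, with sums of 2029 to 2188, 2123 to 2448 and 2277 to 2693 TPM, the knockouts overlapping. Of 6 tested CA-field markers 1 was lower, and of 6 thalamic markers 1 was higher and 1 lower. No neuronal, choroid plexus or dentate gyrus marker passed. No marker of the oligodendrocyte, microglial, striatal, amygdala, endothelial, mural and astrocyte lists was at 0 in an amygdala library. NCoR1-KO and SMRT-KO libraries did not overlap in the sums of these lists other than astrocytes, and their part in the differences of Nr3c1, Ddit4 and Fkbp5 was not tested.

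**Figure D4:**
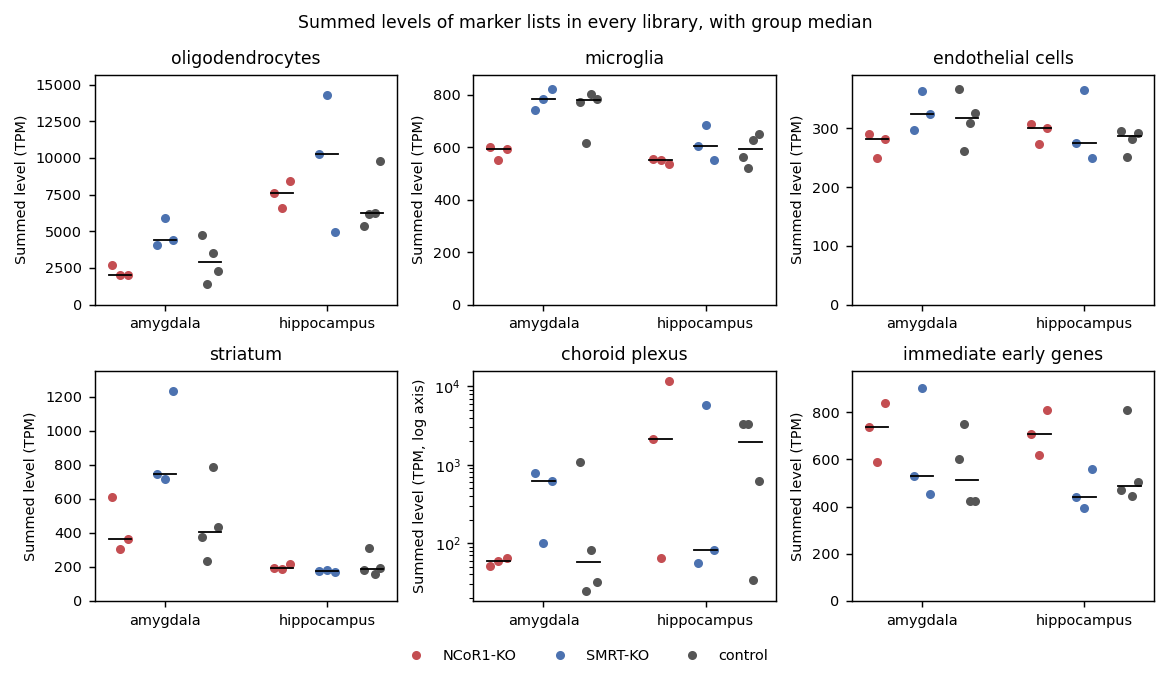
Summed TPM (vertical axes, the choroid plexus panel on a log axis) of 6 gene lists in every library (points), by tissue and genotype, with group medians (lines). In amygdala the NCoR1-KO and SMRT-KO libraries separate in oligodendrocyte, microglial, endothelial and striatal sums, and in hippocampus 1 NCoR1-KO library reaches 11578 TPM of choroid plexus markers.

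The 10 genes did not vary as 1 block across libraries. Deviations from the mean of each tissue and genotype were compared over the 20 libraries, as a description. The highest correlations were between Zbtb16 and Errfi1 (r = 0.60), Fkbp5 and Errfi1 (0.58) and Tsc22d3 and Cdkn1a (0.57), and the lowest between Nr3c2 and Tsc22d3 (-0.72), Nr3c2 and Cdkn1a (-0.71) and Nr3c1 and Fkbp5 (-0.59). Within tissues the last pair had r of -0.41 in amygdala and -0.80 in hippocampus, and Nr3c2 and Tsc22d3 had -0.46 and -0.86. Over the 17 libraries without the 3 that stood apart, the 6 pairs had r of 0.66, 0.61, 0.39, -0.44, -0.73 and -0.47 in the order given. Over 7 hippocampus libraries Nr3c1 and Fkbp5 had -0.92 and Nr3c2 and Tsc22d3 -0.45. Those 7 were 3 controls and 2 of each knockout. In a group of 2 the deviations mirror each other, so these r rest on fewer than 7 free values. All of these points share their libraries, and the part of the composition of a dissection in these correlations was not tested.

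**Figure D5:**
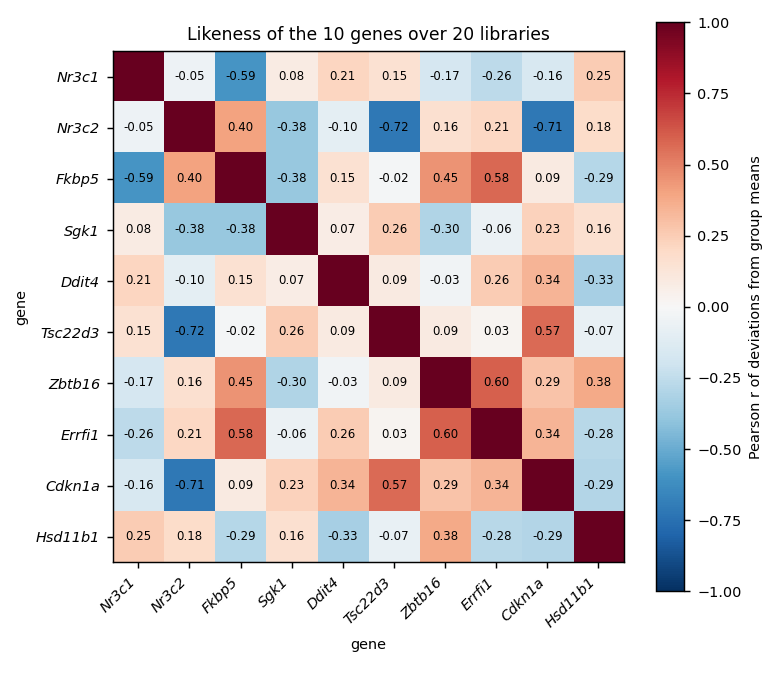
Pearson r (colour and printed value) between the deviations of each pair of the 10 genes from their tissue-by-genotype means, over 20 libraries, with genes on both axes. Red cells such as Zbtb16 with Errfi1 (0.60) vary together and blue cells such as Nr3c2 with Tsc22d3 (-0.72) vary in opposite directions.

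Among 10995 genes with a mean of at least 5 TPM in both tissues, the genes most like each of the 10 by this measure included the following. For the receptors they included Nrd1 (r = 0.92), Hipk1 and Atl3 (0.91 each) with Nr3c1, and Garem (0.91) and Actr2 (0.90) with Nr3c2. Hunk (0.89), Scg3 (0.87) and Ccz1 (0.86) were most like Hsd11b1. P4htm (0.91), Kcnip2 (0.89) and Eif1a (0.87) were most like Fkbp5, and Laptm4a, Adamts1 (0.81 each) and Syde1 (0.80) most like Sgk1. Ccnl1 (0.82), Naca (0.80) and Alkbh6 (0.77) led for Ddit4. Slc2a1 (0.89), Gjb6 (0.87) and Cxx1b (0.84) led for Tsc22d3, Zmynd8 (0.89), Galnt9 and Gpd1 (0.88 each) for Zbtb16, and Phf15 (0.90), Spry4 (0.89) and Hspa1a (0.88) for Errfi1. Mid1 and Erdr1 (0.86 each) were among those most like Cdkn1a. Without the 3 libraries that stood apart, r of these pairs lay between 0.62 (Adamts1 with Sgk1) and 0.92.

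The receptors bind DNA as pairs at an inverted repeat, and the start regions of the genes were searched for it. RefSeq promoter windows of 300 bases on GRCm38.p6, 250 before and 50 after a transcript start, were at hand for 8 of the 10 genes, 17 windows in all. The inverted repeat GNACANNNTGTNC, which reads the same on both strands, was found in 1 of the 17 windows, at a start of Sgk1, and in 0.475% of 32851 windows of the genome. The shorter motif AGAACA, or TGTTCT on the other strand, was found in 4 of the 17 windows, 3 of Sgk1 and 1 of Tsc22d3, and in 19% of all windows. Where both motifs match they overlap.

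The 250 bases before that start of Sgk1 (chr10:21993640-21993889, plus strand) are shown because they hold the inverted repeat, and those before the start of Fkbp5 (chr17:28486150-28486399, minus strand) as a window of another receptor target with neither motif. Capitals mark the matches. The 15 capitals in Sgk1 run from base -189 to base -175 before the start and hold 1 AGAACA, 1 TGTTCT and, within them, the inverted repeat, and the other match begins at base -242.
Sgk1: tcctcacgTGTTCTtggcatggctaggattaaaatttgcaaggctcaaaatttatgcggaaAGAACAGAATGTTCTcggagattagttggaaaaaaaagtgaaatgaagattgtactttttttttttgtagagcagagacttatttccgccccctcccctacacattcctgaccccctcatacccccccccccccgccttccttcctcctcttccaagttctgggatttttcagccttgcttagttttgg
Fkbp5: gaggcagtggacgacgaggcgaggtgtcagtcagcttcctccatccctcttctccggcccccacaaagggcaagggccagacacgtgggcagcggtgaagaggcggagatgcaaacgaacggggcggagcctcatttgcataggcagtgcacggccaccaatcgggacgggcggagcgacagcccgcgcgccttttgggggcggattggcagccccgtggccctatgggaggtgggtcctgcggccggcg
Both genes were lower in control amygdala than in control hippocampus. A match is a description of the letters in these windows and was not tied to binding here.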

How the data were processed

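RNA was extracted with a lipid tissue kit and sequenced as stranded mRNA libraries, per the labels' protocols. The authors deposited gene-level TPM values, 1 table per tissue. The submitters' processing notes name RSEM 1.3.3, STAR 2.5.3a, fastp 0.21.0 and bcl2fastq, without saying which step each served, and the build mm10. The annotation behind the gene symbols was not given in the sources used here.

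Values were tested as log2(TPM + 1) with limma 3.58.1 in R 4.3.3, a scale that understates changes of low genes. A gene was tested where it reached 1 TPM in at least 3 libraries of the tissue, which left 14501 genes in hippocampus and 14606 in amygdala. The 3 genotypes were fitted together within a tissue, with a variance trend, and tissue contrasts with both tissues together over 14210 genes. Benjamini-Hochberg adjustment ran over all tested genes, at a threshold of 0.05. The fit was tested on simulated data. Library totals keep no depth, and 0 columns of other samples were used.

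The 10 genes and the gene lists were chosen with earlier results of these data known. Named beside them are Ncor1 and Snap25, up to 4 genes of smallest p per list and comparison, and up to 3 genes most like each of the 10. Same-numbered libraries were not paired by the labels. Their deviations correlated over 0.1 in 4 of 18 pairs within a tissue and in 8 of 10 pairs across tissues. Positions are from GENCODE on GRCm38. Reads of Nr3c2, Fkbp5 and Hsd11b1 may be shared with overlapping genes on the same strand. Alternatives covered the pseudocount, filters, scaling, variance trend, replicate block and each library left out. Omitting 3 hippocampus libraries was added after seeing the data. Some results are not reported here.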

Additional observations from a re-analysis of the deposited data

Results flagged for a closer look

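The 4 control libraries of each tissue were checked for each of the 10 genes, 20 groups in all, for a library whose gap to its nearest neighbour takes up most of the range of its group. Chance flags about 1 in 20 such groups. All 3 cases came from hippocampus control 2. Nr3c2 had 110.66 TPM there, with the other controls between 142.57 and 144.86 TPM. Errfi1 had 51.11 TPM, with the others between 39.55 and 41.4 TPM. Cdkn1a had 20.46 TPM, with the others between 12.22 and 13.07 TPM. The same library had the highest sums of striatal and amygdala markers among the hippocampus libraries, 312 and 157 TPM, and their part in these values was not tested.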

How the results depend on the processing

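The number of the 10 genes called held in every alternative for 8 of the 9 comparisons. In amygdala NCoR1-KO against SMRT-KO, 2 genes were called, and leaving out 1 library gave between 0 and 3. It was 3 without control 2, as Fkbp5 also passed, and 0 without NCoR1-KO 1, SMRT-KO 2 or SMRT-KO 3. Omitting 1 library also reduces the samples behind the test. The pseudocount of 0.1, both filters, the 2 scalings, the fit without a variance trend and the replicate block kept it within 1 of that number. With the replicate block the count was 2 there and 8 between the control tissues, and the block changed no other count of the 10 genes. Within a tissue the block joined same-numbered libraries of different genotypes, so it did not pair libraries by animal. Its estimated correlation was -0.04 in amygdala and -0.08 in hippocampus. That block moved the calls over all genes from 16 to 2 in amygdala SMRT-KO against control. It also ended the calls of Crhbp and Per1 between the amygdala knockouts. In the fit of both tissues the block joined same-numbered libraries of the same genotype, with an estimated correlation of 0.19. Of 20 libraries, 15 correlated best with their own number in the other tissue, a hint from the data and not from the design.

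Of 90 differences of the 10 genes, 27 changed sign under at least 1 alternative, none of them called. Tsc22d3 between the control tissues turned to -0.0040 under quantile normalization and, with 1 library left out, to values from -0.0524 to 0.124, and the cause was not tested. The depth is unknown and sets no limit that could be computed here. With 3 or 4 libraries per group, standard errors of the 10 genes within a tissue were 0.08 to 0.22 on the log2 scale.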
